A study of Homo sapiens with 21 samples.

Results

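The genes described are MYC and 7 genes of the network built around its partner MAX: MAX itself, MXD1, MXD4, MXI1, MNT, MLX and MGA. They were taken by symbol from the array's annotation, using probe sets (groups of probes for the same transcript) that carry a single symbol. All 8 were found among the 18132 genes measured, and all 8 passed the filter on low values that left 12644 genes for testing. The arrays came from 4 established human breast cancer lines treated for 6 h with the vehicle DMSO or with 50 or 250 nM THZ1, a covalent inhibitor of the transcriptional kinase CDK7. MDA-MB-468 and BT-549 are triple-negative lines, ZR-75-1 is oestrogen receptor positive, and T47D is positive for oestrogen and progesterone receptors. Each line and dose had 2 arrays, except BT-549, which had 1 at each dose, giving 21 arrays in 12 groups. The design asks how the RNA of triple-negative and receptor-positive cells responds to blocking CDK7. Nothing in the labels says that the 2 arrays of a group came from separate cultures, and each p-value therefore reflects nothing beyond array-to-array spread.

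MYC is a transcription factor of the basic helix-loop-helix leucine zipper class that drives ribosome production, metabolism and cell division. It binds DNA as a dimer with MAX at the E-box, CACGTG, and recruits histone acetyltransferases. MXD1, MXD4, MXI1 and MNT also pair with MAX but recruit SIN3 repressor complexes, MGA joins MAX to a variant Polycomb complex, and MLX pairs with the glucose-sensing factors MondoA and ChREBP as well as with some MXD proteins and MNT. MYC mRNA and protein are short-lived, and MYC is amplified or overexpressed in many breast tumours, often in the triple-negative class.

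The E-box occurs in the promoters of 3 network genes, and these are shown because the network's own dimers recognise that motif. The 250 bases before each annotated start were searched in 12 promoter windows of 7 of the genes (RefSeq, GRCh38.p14). CACGTG, which reads the same on both strands, was found in 3 of these 12 windows, and in 2228 of 35116 promoter windows of all genes (6.34%). Each sequence is read 5′ to 3′ along the gene's strand, with up to 30 bases on either side and the E-box in capitals. The MXD4 stretch lies at chr4:2262312-2262359 on the minus strand, the MNT stretch at chr17:2401218-2401283 on the minus strand, and the MLX stretch at chr17:42567020-42567085 on the plus strand.
MXD4: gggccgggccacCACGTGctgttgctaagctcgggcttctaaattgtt
MNT: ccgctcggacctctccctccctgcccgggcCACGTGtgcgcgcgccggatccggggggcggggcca
MLX: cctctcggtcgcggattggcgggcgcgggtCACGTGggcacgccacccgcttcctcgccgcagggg
The motif began 238, 193 and 50 bases before the start in MXD4, MNT and MLX. For MAX, MXD1, MXI1 and MGA these letters are not in the windows searched, which says nothing else about those promoters. On the deposited scale at 250 nM MLX was lower in 3 lines, MNT in 2, and MXD4 was higher in 1. Among all tested genes, 30.3% (MDA-MB-468), 42.8% (ZR-75-1) and 33.7% (T47D) were lower on that scale, and 9.61% were higher in T47D. With arrays scaled to spiked control transcripts all 3 genes were lower in MDA-MB-468 and ZR-75-1. Under that scaling 87.6% of tested genes were lower in MDA-MB-468 and 97.4% in ZR-75-1, among them MAX, MXD1, MXI1 and MGA. With so many genes lower, that scaling could not tell genes with the motif from the rest, and a link between motif and change was not tested.

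The array values are linear intensities without a count of molecules, and the small number of arrays limits the precision. Array means lay between 326.4 and 342.8. Untreated ESR1, the oestrogen receptor, followed the receptor status of the line names. It lay between 435 and 927.5 in ZR-75-1 and T47D, against 29.13 and 32.63 in MDA-MB-468 and 18.45 in BT-549. PGR, the progesterone receptor, was at 5053 and 5109 in untreated T47D and at 458.9 and 399.8 in ZR-75-1. The mesenchymal marker VIM was at 14440 in untreated BT-549 and at 659.4 and 722.2 in MDA-MB-468. The luminal marker KRT18 was high in untreated MDA-MB-468 too (10050 and 9572, against 14110 and 13670 in T47D). The 6 markers of blood, vessel and stromal cells summed to between 158.6 and 497.6 over all arrays; on the DMSO arrays PTPRC and LUM were never above background, CD3E (29.89 to 37.88), PECAM1 and COL1A1 always were, COL1A1 stood at 278.3 in BT-549, and CD14 at 284.4 and 297.8 in MDA-MB-468. At 250 nM, 30.3% of tested genes were lower and 9.54% higher in MDA-MB-468, 42.8% and 9.93% in ZR-75-1, and 33.7% and 9.61% in T47D (limma, Benjamini-Hochberg adjusted p under 0.05). With each array centred on its median, the same shares became 21.8% and 27.4% in MDA-MB-468, 31.6% and 28.2% in ZR-75-1, and 26.1% and 19.3% in T47D. Scaled to spiked control transcripts, they became 87.6% and 0.0712%, 97.4% and 0.0475%, and 90.3% and 0.15%, and the median gene moved from -0.07 to -0.58, from -0.18 to -0.91 and from -0.08 to -0.68 on the log2 scale. Directions of small changes are therefore relative to the bulk of genes on the same arrays.

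MYC mRNA fell at 250 nM in every line, and by far more in MDA-MB-468 than in the receptor-positive lines. At 50 nM it fell in MDA-MB-468, while neither ZR-75-1 nor T47D passed the test. In MDA-MB-468 the intensity was 1846 and 1914 with DMSO, 1137 and 1146 at 50 nM, and 107 and 93.32 at 250 nM. The 3 doses did not overlap, and the 250 nM arrays kept 5.32% of the untreated mean. In ZR-75-1 it was 968.4 and 1044 with DMSO, 924 and 873.9 at 50 nM, and 211.2 and 200.4 at 250 nM. In T47D it was 757 and 738.4, then 715.7 and 670.8, then 152.3 and 179.2. In both receptor-positive lines the 50 nM arrays lay just under the DMSO arrays and the 250 nM arrays far below. Such non-overlap alone was common: all treated arrays lay below all DMSO arrays for 39% of genes in MDA-MB-468, 25.1% in ZR-75-1 and 33.8% in T47D at 50 nM, and for 42.3%, 52% and 46.4% at 250 nM. BT-549 gave 3156, 1719 and 477.1 on its single arrays, a stepwise fall with no replicate to test it. Being bulk cultures, these samples do not allow fewer cells with MYC mRNA and less of it per cell to be told apart.

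**Figure D1:**
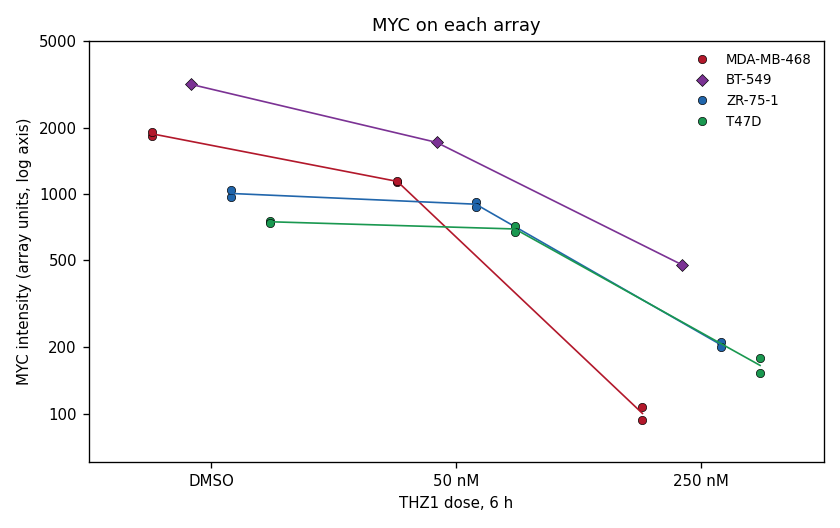
Intensity of the MYC probe set on each of the 21 arrays (log axis) against THZ1 dose, with lines joining the group means. The MDA-MB-468 arrays lie above those of ZR-75-1 and T47D with DMSO and below them at 250 nM.

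At 250 nM the MYC change in MDA-MB-468 was -4.23 ± 0.08 (log2, SE, n = 2 against 2), an 18.8-fold decrease (limma adjusted p = 2.98e-14), which ranked 3 from the lowest of 12644 genes. The decrease was 4.89-fold in ZR-75-1 (-2.29 ± 0.08, limma adjusted p = 2.79e-12, rank 286) and 4.53-fold in T47D (-2.18 ± 0.08, limma adjusted p = 3.78e-11, rank 104). In BT-549 the 2 arrays differed 6.62-fold, rank 52 in that line, where 8.94% of genes fell by a factor of 2 or more. At 50 nM the change was -0.72 ± 0.08 in MDA-MB-468 (limma adjusted p = 1.84e-05) and 1.84-fold downward in BT-549. The values of -0.16 ± 0.08 in ZR-75-1 and -0.11 ± 0.08 in T47D did not pass (limma adjusted p = 0.281 and 0.496), although with scaling to spiked control transcripts the T47D value was -0.35 and passed (limma adjusted p = 0.0114). Most of the fall came between the 2 doses: 250 nM against 50 nM gave -3.51 in MDA-MB-468, -2.13 in ZR-75-1 and -2.07 in T47D, each ± 0.08, where 23.2%, 41.7% and 27.2% of genes were lower, and the values ranked 2, 256 and 24 from the lowest.

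The difference between lines was itself tested. The MYC change at 250 nM was lower by -1.94 ± 0.12 (log2) in MDA-MB-468 than in ZR-75-1 (limma adjusted p = 6.47e-08) and by -2.06 ± 0.12 than in T47D (limma adjusted p = 2.71e-08), ranking 28 and 19 of 12644 differences. At the same contrasts 3.09% and 8.11% of genes differed in that direction. ZR-75-1 and T47D differed by -0.11, with a 95% interval from -0.36 to 0.14 (limma adjusted p = 0.578). At 50 nM the MDA-MB-468 change differed from that of ZR-75-1 by -0.56 ± 0.12 (limma adjusted p = 0.024; 1.69% of genes differed that way) and from that of T47D by -0.61 ± 0.12 (limma adjusted p = 0.0155; 1.72%). Both 50 nM differences missed the threshold with each array centred on its median, at -0.44 and -0.51 (limma adjusted p = 0.18 and 0.0887), the second also with scaling to spiked control transcripts (-0.48, limma adjusted p = 0.0998). The first was lost without any of 6 arrays (either MDA-MB-468 array with DMSO or 50 nM, or replicate 1 of ZR-75-1 with DMSO or 50 nM) and the second without any of 5 (either MDA-MB-468 array at 50 nM, either T47D array with DMSO, or T47D replicate 1 at 50 nM), with values from -0.61 to -0.5 and from -0.66 to -0.56.

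On the deposited scale MDA-MB-468 changed its place among the lines in MYC level with dose, while BT-549 stayed highest and ZR-75-1 stayed above T47D. Untreated, MYC was highest in BT-549 (3156, 1 array), then 1880 ± 47.9 (SD, n = 2) in MDA-MB-468, 1006 ± 53.3 in ZR-75-1 and 747.7 ± 13.2 in T47D. MDA-MB-468 exceeded ZR-75-1 by 0.90 ± 0.08 on the log2 scale (limma adjusted p = 8.5e-08), and ZR-75-1 exceeded T47D by 0.43 ± 0.08 (limma adjusted p = 0.000299). Differences of either sign were common between lines, at 66% and 63.1% of genes. At 250 nM the means were 477.1 in BT-549, 205.8 ± 7.6 in ZR-75-1, 165.7 ± 19 in T47D and 100.1 ± 9.65 in MDA-MB-468. MDA-MB-468 was then lower than T47D by -0.73 ± 0.08 (limma adjusted p = 9.85e-07) and lower than ZR-75-1 by -1.04 ± 0.08 (limma adjusted p = 1.29e-08), where 68.3% and 66.1% of genes differed in either direction. ZR-75-1 exceeded T47D by 0.32 (limma adjusted p = 0.00326; 66.2% of genes differed in either direction), a step that was 0.20 and missed the threshold without T47D replicate 1 at 250 nM (limma adjusted p = 0.069). With scaling to spiked control transcripts, the order of ZR-75-1 and T47D turned, to -0.25 with DMSO and -0.49 at 250 nM, and MDA-MB-468 stood level with ZR-75-1 at 250 nM (0.02, limma adjusted p = 0.837).

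Over the network as a whole, the 250 nM arrays were lower for 6 of 8 members in both MDA-MB-468 and ZR-75-1 and for 5 of 8 in T47D, against the background shares given above of 30.3%, 42.8% and 33.7%. Higher values were called for MXD4 and MXI1 in T47D (2 of 8, against 9.61% of genes) and for no member in the other 2 lines. On the deposited scale no difference between lines in their changes passed the test (limma, lowest adjusted p = 0.0925). With quantile normalization MXD4 in MDA-MB-468 differed from ZR-75-1 by -0.48 and from T47D by -0.43, and both passed. The T47D difference also passed as a mean over probe sets (-0.34). With control transcripts MXI1 passed for MDA-MB-468 less ZR-75-1 (0.36) and ZR-75-1 less T47D (-0.4). With median centring 1 member was higher in MDA-MB-468 and 2 in ZR-75-1, where 27.4% and 28.2% of genes were higher. With quantile normalization 2 were higher in ZR-75-1 (32.5% of genes), and MNT and MGA lost their lower calls there (30.7% of genes lower). Under either scaling MGA was not called lower in MDA-MB-468. With control transcripts none was higher in T47D (0.15% of genes). Every member was then lower in MDA-MB-468 and ZR-75-1, and all but MXD4 in T47D, beside 87.6%, 97.4% and 90.3% of genes. The median member changed by -0.59, -0.68 and -0.45 in the 3 lines, beside -0.07, -0.18 and -0.08 for all tested genes. At 50 nM, 4 members were lower in MDA-MB-468 (MYC, MAX, MXD1 and MLX, against 14.6% of genes; none was higher, against 4.42%). None passed by limma in ZR-75-1 (5.68% of genes lower, 2.79% higher). In T47D 2 were lower (MLX and MGA, against 7.56%) and MXI1 was higher (1.99%). In a fit on the means of all 4 lines, the same 6 genes, MYC, MAX, MXD1, MNT, MLX and MGA, were lower at 250 nM and none higher (29.9% of genes lower, 9.48% higher), with MYC at -2.86 ± 0.30 (limma adjusted p = 0.000189), and at 50 nM no member passed (0.316% of genes were lower and 0.182% higher), the lowest adjusted p being that of MLX at 0.12.

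**Figure D2:**
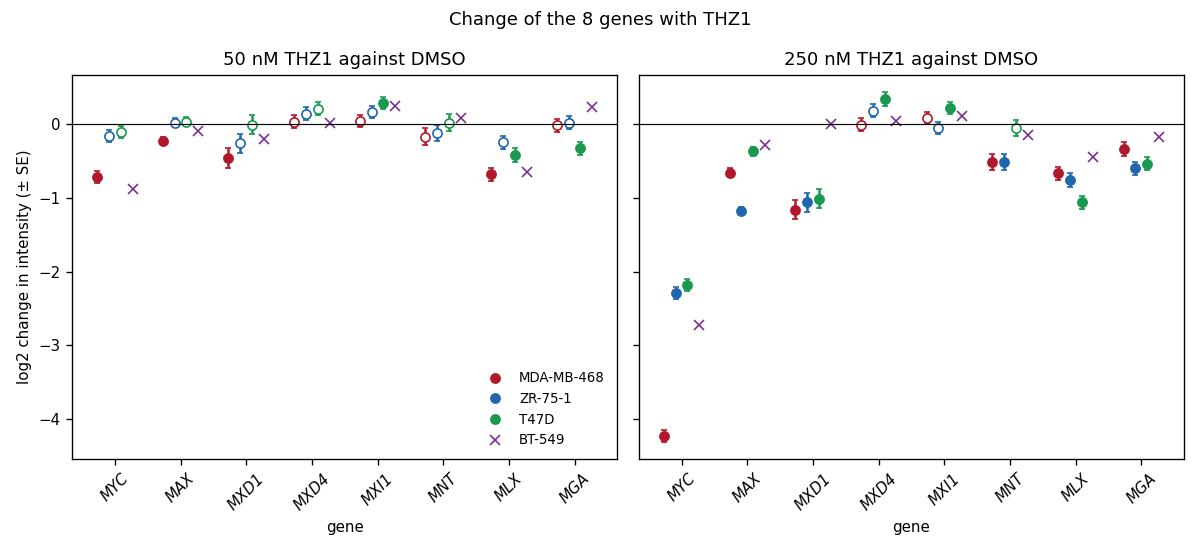
Log2 change of the 8 genes at 50 nM (left) and 250 nM (right) against DMSO, with SE from the fit for the 3 lines with 2 arrays a group and single differences as crosses for BT-549; filled points passed the limma test. MYC lies below -2 in every line at 250 nM, while the other genes lie between -1.18 and 0.34; with scaling to control transcripts MXD4 and MXI1 lie below 0 at 250 nM.

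MAX, the shared dimerisation partner of MYC, the MXD proteins, MNT and MGA, fell at 250 nM in the 3 tested lines, most in ZR-75-1. Its intensity in ZR-75-1 was 601.3 and 580.6 with DMSO, 619.1 and 583.2 at 50 nM, and 264.5 and 258.5 at 250 nM. The 50 nM arrays overlapped the DMSO arrays and the 250 nM arrays lay far below both, a 2.26-fold decrease (-1.18 ± 0.06, limma adjusted p = 1.4e-10). In MDA-MB-468 it went from 449.9 and 476 through 404.3 and 387.1 to 291.3 and 295.3, a stepwise fall without overlap that reached -0.66 ± 0.06 (limma adjusted p = 2.56e-07). The MDA-MB-468 step at 50 nM, -0.23 ± 0.06 (limma adjusted p = 0.0178), was -0.09 with median centring, -0.06 as a mean over the gene's probe sets and -0.19 without replicate 2 of either the DMSO or the 50 nM group, and missed the threshold each time. In T47D the values were 598.1 and 568, then 588.2 and 603.8, then 447.2 and 457.8, a decrease of -0.37 ± 0.06 at 250 nM (limma adjusted p = 0.000158) that was -0.14 and did not pass as a mean over the gene's probe sets (limma adjusted p = 0.146). BT-549 gave 673.1, 632.1 and 554.3.

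The MAX response differed between lines in another order than that of MYC. The change at 250 nM in ZR-75-1 was lower by -0.81 ± 0.09 than in T47D (limma adjusted p = 7.22e-06; 19.8% of genes differed that way). The change in MDA-MB-468 was less negative than in ZR-75-1 by 0.52 ± 0.09 (limma adjusted p = 0.000451; 19.9%). The difference of -0.29 between MDA-MB-468 and T47D (limma adjusted p = 0.0351) did not hold, at -0.21 with median centring, -0.11 as a mean over probe sets, and with adjusted p over the threshold without any of 7 arrays of those lines, all of the 8 DMSO and 250 nM arrays except MDA-MB-468 DMSO replicate 1.

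MXD1, an antagonist of MYC that rises in many cells as they differentiate, fell at 250 nM in the 3 tested lines. In MDA-MB-468 its intensity was 178.2 and 187.9 with DMSO, 135 and 131.4 at 50 nM, and 95.53 and 70.53 at 250 nM. In ZR-75-1 it was 96.69 and 92.17, then 77.56 and 80.65, then 41.62 and 48.94. In T47D it was 62.51 and 59.78, then 59.01 and 62.06, then 31.31 and 29.51. The 250 nM arrays were below all others in each line, and in T47D the 50 nM and DMSO arrays overlapped. The changes at 250 nM were -1.16 ± 0.13, -1.06 ± 0.13 and -1.01 ± 0.13 (limma adjusted p = 2.21e-06, 3.2e-06 and 1.12e-05), and differences between lines had 95% intervals from -0.49 to 0.30 (MDA-MB-468 less ZR-75-1), from -0.54 to 0.25 (MDA-MB-468 less T47D) and from -0.45 to 0.34 (ZR-75-1 less T47D). The MDA-MB-468 change at 50 nM, -0.46 ± 0.13 (limma adjusted p = 0.0229), was lost without any one of the 4 arrays it compares, at -0.5 to -0.42, and with median centring (-0.32) or quantile normalization (-0.34). The T47D change at 250 nM was -0.22 as a mean over both probe sets and did not pass. The T47D arrays at 250 nM, at 4.97 and 4.88 on the log2 scale, stood barely above the background of 4.82 on each. The size of the T47D fall and its difference from the other lines are therefore limited by background. The ZR-75-1 arrays at 250 nM, at 5.38 and 5.61 against backgrounds of 4.82 and 4.97, also stood close to it. In BT-549 MXD1 stood near background at 28.52, 24.87 and 28.54, and its 50 nM array was not above background.

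MNT, a ubiquitous antagonist, fell modestly in MDA-MB-468 and ZR-75-1 at 250 nM. In MDA-MB-468 it went from 99.87 and 99.12 through 91.67 and 85.86 to 68.54 and 69.75, a change of -0.52 ± 0.11 (limma adjusted p = 0.000934). In ZR-75-1 it went from 107.3 and 97.94 through 90.8 and 98.19 to 68.76 and 75.59, a change of -0.51 ± 0.11 (limma adjusted p = 0.0008). In both lines the 250 nM arrays lay below all DMSO arrays. In T47D the DMSO arrays at 78.65 and 84.1 and the 250 nM arrays at 75.46 and 81.71 overlapped (-0.05 ± 0.11, limma adjusted p = 0.745); with scaling to spiked control transcripts the T47D value was -0.65 and passed. The MNT differences between lines stood at the threshold, -0.47 for MDA-MB-468 less T47D and -0.46 for ZR-75-1 less T47D (limma adjusted p = 0.0499 and 0.0434), and both missed it with median centring (-0.4 and -0.33), with quantile normalization (-0.4 and -0.26) and without a low-value filter; leaving out 1 array at a time, the first was lost in 16 of 18 fits and the second in 11, including those without arrays of the other line. The decrease in MDA-MB-468 was -0.26 as a mean over both probe sets and that in ZR-75-1 -0.11 with quantile normalization, and neither passed. BT-549 gave 82.12, 86.62 and 73.91.

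MGA, which carries a second DNA-binding domain of the T-box kind beside its MAX-binding one, fell at 250 nM in the 3 tested lines. Its intensity was 185.3 and 223.2 with DMSO, 207.4 and 194.6 at 50 nM, and 159.1 and 162.9 at 250 nM in MDA-MB-468. In ZR-75-1 it was 197.7 and 204.4, then 199.6 and 208.5, then 138.9 and 126.7. In T47D it was 156.5 and 164, then 122.1 and 132.7, then 110.7 and 109.2. All 250 nM arrays lay below the DMSO arrays of their line, and in MDA-MB-468 and ZR-75-1 the 50 nM arrays overlapped DMSO. The changes at 250 nM were -0.34, -0.60 and -0.54, each ± 0.09 (limma adjusted p = 0.009, 4.56e-05 and 0.0002). The MDA-MB-468 call was lost without DMSO replicate 2 (-0.2) or 250 nM replicate 1 (-0.32), and with median centring (-0.14) or quantile normalization (-0.02), which also took the ZR-75-1 value to -0.1. The T47D change at 50 nM, -0.33 ± 0.09 (limma adjusted p = 0.0367), was lost without any one of its 4 arrays, at -0.39 to -0.27. BT-549 gave 122.5, 143.9 and 107.8.

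MLX, the MAX-like partner of MondoA and ChREBP, was the member other than MYC that moved most clearly at the lower dose. In MDA-MB-468 it stood at 487.9 and 437.7 with DMSO, 289.6 and 286.4 at 50 nM, and 277.5 and 303.5 at 250 nM. Both doses lay well below DMSO and overlapped each other: the change was -0.68 ± 0.09 at 50 nM and -0.67 ± 0.09 at 250 nM (limma adjusted p = 5.15e-05 and 1.13e-05), and 250 against 50 nM gave 0.01, with a 95% interval from -0.18 to 0.20. With scaling to spiked control transcripts that last difference was -0.38 and passed (limma adjusted p = 0.00288). In T47D MLX fell stepwise from 882.2 and 892.3 through 694.4 and 632.7 to 448.7 and 402.9, at -0.42 ± 0.09 and -1.06 ± 0.09 (limma adjusted p = 0.00608 and 8.08e-08), and the 50 nM call missed the threshold without DMSO replicate 2 (-0.41) or 50 nM replicate 2 (-0.35). In ZR-75-1 it went from 520.9 and 518.6 through 454 and 418.8 to 331.7 and 283.3, where -0.25 at 50 nM did not pass (limma adjusted p = 0.0962) and -0.76 ± 0.09 at 250 nM did (limma adjusted p = 1.56e-06). BT-549 gave 366.4, 232.9 and 268.5, with the lowest value at 50 nM. The change at 250 nM was less negative in MDA-MB-468 than in T47D by 0.39 ± 0.12 (limma adjusted p = 0.0479; 6.43% of genes differed that way), a value that missed the threshold with median centring (0.47, limma adjusted p = 0.0503) and in 13 of the 18 fits that each left out 1 array (0.31 to 0.47 over the 18), among them the fit without DMSO replicate 2 of MDA-MB-468 (0.31).

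MXD4 and MXI1, antagonists of MYC like MXD1, did not fall with the rest on the deposited scale. MXD4 in T47D rose from 136.9 and 136.7 with DMSO through 166.1 and 151.2 at 50 nM to 173.4 and 172.2 at 250 nM, with no overlap between DMSO and either dose; 21.8% of genes lay above DMSO in that way at 50 nM and 26% at 250 nM. The T47D change at 250 nM was 0.34 ± 0.09 (limma adjusted p = 0.00792) and turned to -0.27 with scaling to spiked control transcripts (limma adjusted p = 0.0545). In MDA-MB-468 MXD4 stood at 71.83 and 62.22, then 69.79 and 66.92, then 67.36 and 65.89, all overlapping, and in ZR-75-1 at 115.6 and 122.9, then 133.3 and 129.6, then 136.3 and 134.4. The ZR-75-1 change of 0.18 ± 0.09 at 250 nM did not pass (limma adjusted p = 0.115), was 0.43 and 0.69 and passed with median centring and quantile normalization, and was -0.55 and passed with control transcripts. BT-549 gave 144.1, 146.1 and 148.1.

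MXI1 stood at 376.3 and 412.9 with DMSO in T47D, 467.6 and 497.8 at 50 nM, and 454.6 and 462.2 at 250 nM. Both doses lay above DMSO, by 0.29 ± 0.08 and 0.22 ± 0.08 (limma adjusted p = 0.0254 and 0.0314), but the 250 nM call was lost without DMSO replicate 1 (0.15) or either 250 nM array (0.23 and 0.21) and turned to -0.38 with control transcripts. The 50 nM call was lost with control transcripts (0.05), as a mean over probe sets (0.09), and without DMSO replicate 1 (0.22) or either 50 nM array (0.34 and 0.25); the 250 nM call was also lost as a mean over probe sets (0.19). In MDA-MB-468 the values were 701.4 and 761.4, then 775.2 and 723.4, then 763.1 and 787, a change of 0.08 at 250 nM that did not pass (limma adjusted p = 0.432) and was 0.29 with median centring and -0.42 with control transcripts. In ZR-75-1 they were 480.7 and 449.2, then 486.6 and 550.3, then 437.2 and 459.4, a change of -0.05 that did not pass (limma adjusted p = 0.615), was 0.20 with median centring, 0.28 with quantile normalization and -0.78 with control transcripts. BT-549 gave 148.3, 176 and 159.7. The direction for MXD4 and MXI1 thus depended on the scale. Under those 3 scalings MYC, MAX, MXD1 and MLX kept a lower call at 250 nM in the 3 tested lines. MAX and MXD1 lost theirs in T47D as means over all their probe sets (-0.14 and -0.22, limma adjusted p = 0.146 and 0.232). These means take in probe sets too low to test, as only 9 of 12 MAX and 1 of 2 MXD1 probe sets were tested.

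**Figure D3:**
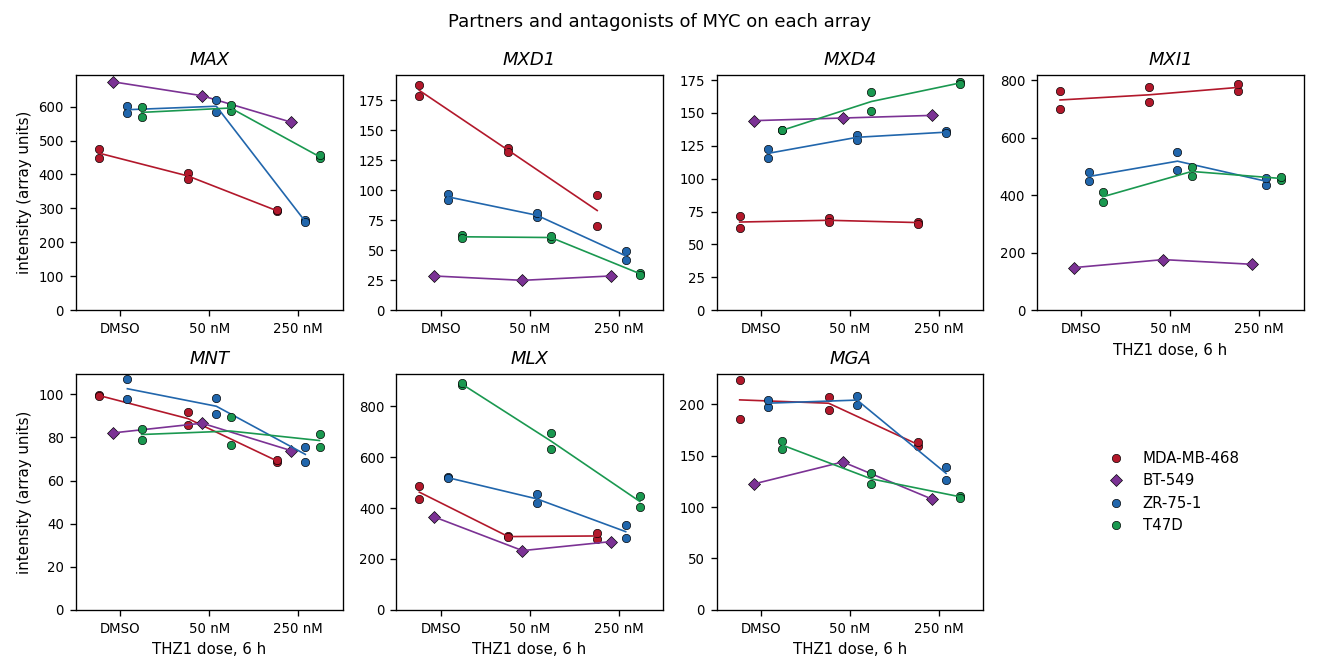
Intensity of MAX, MXD1, MXD4, MXI1, MNT, MLX and MGA on each array against THZ1 dose, with lines joining group means; each panel has its own axis starting at 0, so levels are compared within a gene only. MLX in MDA-MB-468 is as low at 50 nM as at 250 nM, and MAX in ZR-75-1 drops between 50 and 250 nM.

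Set against MYC on the same arrays, which removes any scaling factor of an array, the other 7 genes lost less. At 250 nM their changes exceeded that of MYC by 3.08 (MXD1) to 4.32 (MXI1) in MDA-MB-468, by 1.11 (MAX) to 2.47 (MXD4) in ZR-75-1 and by 1.12 (MLX) to 2.51 (MXD4) in T47D, on the log2 scale. All 21 of these differences passed (limma, highest adjusted p = 7e-07), as did those of 100%, 96% and 98.2% of all other tested genes to the digits given. So the intensity of MYC fell relative to its partner and to each antagonist measured, as it did relative to nearly every gene. At 50 nM in MDA-MB-468, MAX, MXD4, MXI1, MNT and MGA lost less than MYC (by 0.49 to 0.76, limma, highest adjusted p = 0.00171; 85.1% of genes did so), while MLX and MXD1 differed from it by 0.04 and 0.26 and did not pass (limma adjusted p = 0.8 and 0.0839). In ZR-75-1 and T47D at 50 nM none of the 7 differed from MYC by this limma test, where 2.9% and 1.33% of genes lost less and 137 and 289 of 12643 genes lost more.

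The 8 genes had 36 probe sets, of which 31 were high enough to test, and these did not always move alike. MYC has a single probe set, so its fall has no second probe set beside it. For MLX, 6 of 6 probe sets were lower at 250 nM in each of the 3 lines, between -1.67 and -0.39, where 26.7%, 38.7% and 29.7% of all tested probe sets were lower in MDA-MB-468, in ZR-75-1 and in T47D. At 50 nM, 6 of 6 MLX probe sets were lower in MDA-MB-468 (11.9% of probe sets), 1 of 6 in ZR-75-1 (4.55%) and 3 of 6 in T47D (6.44%). For MAX, 5, 8 and 6 of 9 tested probe sets were lower in MDA-MB-468, in ZR-75-1 and in T47D at 250 nM. One MAX probe set, 11728150_at, went the other way, at 0.43 in T47D, where it passed as higher (8.49% of probe sets did), and at 0.16 and 0.34 in MDA-MB-468 and ZR-75-1, where it did not pass. For MGA a second probe set, 11758283_s_at, fell by more than the one used for the gene, at -1.18, -1.65 and -1.17 in MDA-MB-468, in ZR-75-1 and in T47D. In T47D, 3 of 5 MXD4 probe sets and 1 of 5 MXI1 probe sets were higher at 250 nM, and the second MNT probe set passed in no line (0.00, -0.22 and 0.05 in MDA-MB-468, in ZR-75-1 and in T47D). Which transcript forms these probe sets read was not tested.

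**Figure D4:**
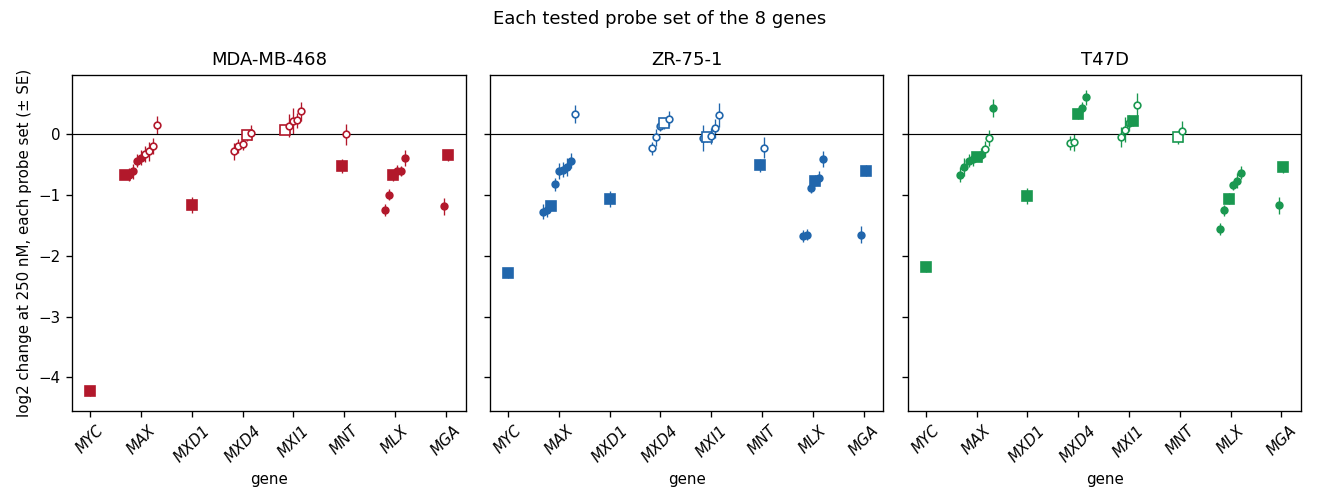
Log2 change at 250 nM THZ1 of each tested probe set of the 8 genes in the 3 lines with 2 arrays a group, with SE; squares mark the probe set used for the gene and filled symbols passed the limma test. The 6 MLX probe sets all lie below 0, while 1 MAX probe set lies above 0 in each line.

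The genes whose levels most resembled those of MYC were found by Pearson correlation over the 21 arrays, each value taken relative to the mean of its line; the arrays share lines and doses, so these are descriptions. TBCC, a tubulin-folding cofactor, was closest (r = 0.993); among the next were CITED2, a coregulator that binds the acetyltransferases CBP and p300 (0.990), the homeobox gene IRX5 (0.990) and the zinc finger gene ZNF223 (0.988). At 250 nM CITED2 changed by -4.13, -2.04 and -2.20 in MDA-MB-468, in ZR-75-1 and in T47D and by -3.73 in BT-549. The most opposite were MPV17 (r = -0.952), NDUFA3 (-0.949) and NEDD8 (-0.945), whose r was 0.759, 0.685 and 0.766 with scaling to control transcripts. Within the network r with MYC was 0.870 for MXD1, 0.835 for MNT, 0.813 for MAX, 0.781 for MGA, 0.708 for MLX, -0.123 for MXI1 and -0.371 for MXD4, the last pair at -0.594 and -0.619 with median centring, -0.607 and -0.674 with quantile normalization, and 0.823 and 0.884 with control transcripts. Quantile normalization also lowered r to 0.475 for MNT, 0.531 for MLX and 0.316 for MGA. On the deposited scale MXD1 ranked 1114 and MAX 1788 of 12643 genes, and with quantile normalization 1116 and 1685.

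Other genes of the network and its cofactors were taken from lists. Of the remaining family members, 5 were listed and 4 tested; MLXIP, which encodes MondoA, fell at 250 nM by limma in 3 lines (-0.24 in MDA-MB-468, -0.39 in ZR-75-1, -0.27 in T47D), MXD3 was lower in T47D (-0.51), and MYCN and MLXIPL passed in no line. Of these 4 genes 1, 1 and 2 were thus lower in MDA-MB-468, in ZR-75-1 and in T47D, beside 30.3%, 42.8% and 33.7% of all genes. The MDA-MB-468 call was lost without DMSO replicate 1 or 250 nM replicate 2. With quantile normalization none of the 4 was lower in any line and 2 were higher in ZR-75-1, beside 32.5% of genes. Of 8 other E-box factors 2, 3 and 1 were lower in MDA-MB-468, in ZR-75-1 and in T47D, at or below the 30.3%, 42.8% and 33.7% of all genes; TFAP4, itself described as a MYC target, was at -0.64, -0.97 and -0.57 and passed in each. The MDA-MB-468 count of E-box factors fell without DMSO replicate 1 or 250 nM replicate 1, and the T47D count rose without 250 nM replicate 2. With quantile normalization 0, 2 and 0 of the 8 were lower and 2 higher in each line. Of all genes 22.9%, 30.7% and 24.2% were then lower, and 24.5%, 32.5% and 26.5% higher. Of 3 genes known to be switched on by MondoA and MLX, TXNIP, an inhibitor of glucose uptake, was lower in ZR-75-1 (-1.84) and T47D (-1.30) and stood at 0.16 in MDA-MB-468 without passing. KLF10 was lower in all 3 lines (-2.03, -1.15 and -0.53 in MDA-MB-468, in ZR-75-1 and in T47D) and ARRDC4 in ZR-75-1 (-1.63). With median centring or quantile normalization 1 of these 3 genes was higher in MDA-MB-468, beside 27.4% and 24.5% of all genes. The T47D count of lower genes fell without DMSO replicate 1, and the MDA-MB-468 count rose without either T47D array at 50 nM.

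Corepressors that the MAX antagonists recruit were lower in 7, 9 and 6 of 14 tested genes at 250 nM in MDA-MB-468, in ZR-75-1 and in T47D, with 1 higher in each line (2 in ZR-75-1 without its replicate 2 at 250 nM), beside 30.3%, 42.8% and 33.7% of all genes lower. The list medians were -0.40, -0.67 and -0.24. E2F6, a DNA-binding subunit of the Polycomb complex that holds MGA, fell most among those named (-2.37, -2.68 and -1.47), and SIN3B, a scaffold of the SIN3 complex, was at -1.06, -1.25 and -0.85, all called. SIN3B was also at -1.06 at 50 nM in MDA-MB-468 (limma adjusted p = 1.52e-05). Of 11 coactivators, 4, 5 and 5 were lower at 250 nM, near those shares of all genes; BPTF, a nucleosome remodelling subunit, was at -0.78, -1.49 and -1.37, and WDR5, a chromatin adaptor that binds MYC, at -0.68, -1.21 and -0.97. The coactivator medians, -0.06, -0.10 and -0.12, lay near those of all genes. The T47D count fell without DMSO replicate 2 or 250 nM replicate 1. Quantile normalization gave 3 lower in each line with 3, 5 and 1 higher. Of all genes 22.9%, 30.7% and 24.2% were then lower, and 24.5%, 32.5% and 26.5% higher.

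Genes that control MYC protein stability were lower in 9, 10 and 8 of 13 at 250 nM, beside 30.3%, 42.8% and 33.7% of all genes, with medians of -0.35, -0.64 and -0.43 in MDA-MB-468, in ZR-75-1 and in T47D. At most 3 were higher, in any line, with median centring or quantile normalization, where from 19.3% to 32.5% of all genes were higher. The list held genes of both directions of control. FBXW7, the ubiquitin ligase adaptor that marks MYC for breakdown, was at -1.46, -1.74 and -1.04, and GSK3B, the kinase that primes it for that ligase, at -1.26, -1.43 and -0.54. AURKA, which shields MYC proteins from that ligase, was at -1.76, -1.47 and -0.96, and USP37, a deubiquitinase, at -1.08, -1.46 and -1.59. Of 9 tested regulators of MYC transcription 4 were lower in each line, near those shares, and 1 was higher, a call lost without any of 3 arrays in MDA-MB-468 (either DMSO array, 250 nM replicate 2) and in T47D (the same 3 by number) and without replicate 1 of either group in ZR-75-1; CTCF, an insulator protein bound near MYC, was at -1.49, -1.79 and -0.67, TCF7L2, the WNT pathway factor, at -2.02, -2.58 and -1.0, and SP1 at -1.03, -1.58 and -0.90. The medians of that list, -0.12, -0.12 and -0.04, lay near those of all genes.

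On the deposited scale, genes commonly described as activated by MYC were called in both directions at 6 h. Of 39 tested, 8 were lower and 12 higher at 250 nM in MDA-MB-468, 17 and 9 in ZR-75-1, and 9 and 8 in T47D, where 30.3%, 42.8% and 33.7% of all genes were lower and 9.54%, 9.93% and 9.61% higher. The medians were 0.02, -0.15 and 0.01, beside -0.07, -0.18 and -0.08 for all genes. The counts follow the scale: 4 lower and 19 higher, 9 and 16, and 5 and 12 with median centring. With control transcripts 36, 39 and 38 were lower and none higher. Of all genes, 21.8% and 27.4%, 31.6% and 28.2%, and 26.1% and 19.3% were lower and higher with median centring. With control transcripts 87.6%, 97.4% and 90.3% were lower. The higher count in MDA-MB-468 was 5, 6 or 7 without DMSO replicate 1, DMSO replicate 2 or 250 nM replicate 1, and that in T47D was 2 without DMSO replicate 2 and 5 without either 250 nM array; the lower count in MDA-MB-468 was 5 without DMSO replicate 1 or 250 nM replicate 2. The 4 genes named here were picked by the size of the test statistic at 250 nM in these same data. All 4 were lower in every tested line, unlike the 12, 9 and 8 genes of the list called higher. POLR1B, a subunit of RNA polymerase I, was at -1.38, -2.50 and -1.24, and NOP16, a nucleolar ribosome assembly factor, at -0.92, -1.65 and -0.68. SLC7A5, an amino acid transporter, was at -0.67, -1.06 and -0.98, and UBTF, a ribosomal DNA transcription factor, at -0.66, -1.10 and -0.74.

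Genes described as repressed by MYC were lower in 8, 6 and 5 of 10 in MDA-MB-468, in ZR-75-1 and in T47D at 250 nM, and none was higher by limma at the adjusted threshold; 30.3%, 42.8% and 33.7% of all genes were lower. Their medians were -0.69, -0.50 and -0.26, and in BT-549 6 of the 10 were at least 2-fold lower, against 8.94% of genes, with a median of -1.76. CDKN1B, which encodes the cell cycle inhibitor p27, was at -3.75, -1.91 and -1.81, and CEBPA, a differentiation factor, at -2.04, -2.47 and -1.19. GADD45B, a stress response gene, was at -1.83, -0.99 and -0.55, and CCND1, the G1 cyclin that promotes division, at -0.64, -1.71 and -0.26. In T47D 2 of the 10 were higher with median centring or quantile normalization, where 19.3% and 26.5% of all genes were higher. Quantile normalization also gave 1 higher in each of the other lines tested, beside 24.5% of genes in MDA-MB-468 and 32.5% in ZR-75-1. T47D also had higher calls without its replicate 1 at 250 nM or without either ZR-75-1 array at 50 nM.

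**Figure D5:**
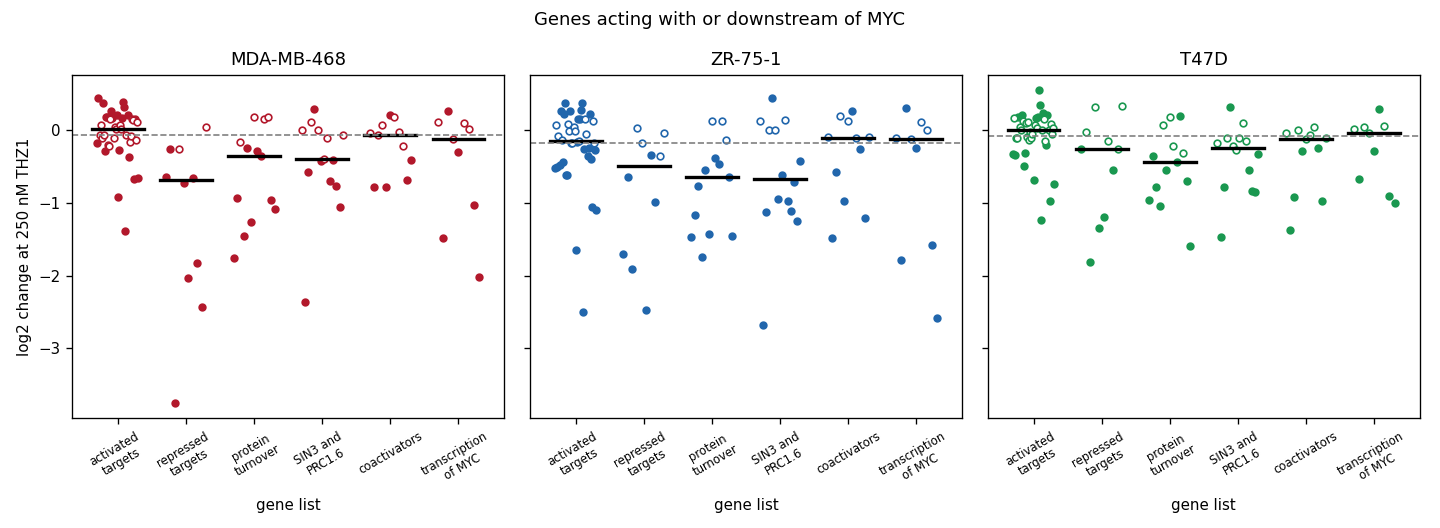
Log2 change at 250 nM THZ1 of each tested gene in 6 lists related to MYC, by line; filled points passed the limma test, black bars are list medians and the dashed line is the median of all tested genes. The median of the repressed targets lies lower than that of the activated targets in each line.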

How the data were processed

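Per the labels' protocols, ERCC transcripts were added to total RNA by cell number, and equal masses were amplified from oligo(dT) and hybridised; these ERCC transcripts were not analysed here. The authors deposited linear intensity values, 1 per probe set and array (49395 probe sets), made with MAS5 per the submitters' processing notes; the version, annotation build and scaling of arrays to each other are not given in the sources used here. For ZR-75-1 and T47D the source name field names another line than the title and cell line fields, which were used. Values were floored at 1 and taken to log2. Of the probe sets, 44994 carry 1 symbol and 1832 several. A gene is represented by its probe set with the highest mean. Genes were tested if at least 1 group mean was no lower than the overall median (5.84 on the log2 scale, an intensity of 57.4).

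limma 3.58.1 (R 4.3.3; lmFit, eBayes with trend) was fitted to the 18 arrays of the 3 lines with 2 arrays a group, with 9 residual degrees of freedom, and adjusted over all tested genes by Benjamini-Hochberg at 0.05. The 4-line fit used line means. BT-549 was described by differences and a 2-fold rule. Background is the mean of 23 background probe sets. The alternative scalings were median centring, quantile normalization and 10 probe sets of the array's spiked control transcripts. Every member is named; of each list, up to 4 genes by mean absolute moderated t at 250 nM; for likeness to MYC, 5 genes with the highest and 3 with the lowest correlation, of which 1 is not reported here. The fit was tested on simulated data. Members and lists were chosen with earlier results of these data known.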

Additional observations from a re-analysis of the deposited data

Results flagged for a closer look

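These differences between lines in the response to the same dose passed the test of the difference itself (limma, adjusted over 12644 genes). The MYC change differed between MDA-MB-468 and ZR-75-1 by -0.56 at 50 nM and -1.94 at 250 nM (adjusted p = 0.024 and 6.47e-08), and between MDA-MB-468 and T47D by -0.61 and -2.06 (adjusted p = 0.0155 and 2.71e-08). The MAX change at 250 nM differed by 0.52 between MDA-MB-468 and ZR-75-1, by -0.29 between MDA-MB-468 and T47D and by -0.81 between ZR-75-1 and T47D (limma adjusted p = 0.000451, 0.0351 and 7.22e-06). The MNT change at 250 nM differed by -0.47 between MDA-MB-468 and T47D and by -0.46 between ZR-75-1 and T47D (limma adjusted p = 0.0499 and 0.0434). The MLX change at 250 nM differed by 0.39 between MDA-MB-468 and T47D (limma adjusted p = 0.0479). The MYC differences at 50 nM, the MAX difference between MDA-MB-468 and T47D, and the MNT and MLX differences all missed the threshold with median centring. Each of these was also lost in some of the fits that left out 1 array. The MYC differences at 250 nM and the 2 MAX differences that involve ZR-75-1 were kept in all of those fits.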

How the results depend on the processing

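With each array centred on its median, the members called lower at 50 nM numbered 2 in MDA-MB-468 and 1 in T47D (8.44% and 4.98% of genes lower). Those called higher at 250 nM numbered 1 in MDA-MB-468, 2 in ZR-75-1 (27.4% and 28.2% of genes higher) and 2 in the 4-line fit. The MYC difference at 50 nM was then -0.44 against ZR-75-1 and -0.51 against T47D. Quantile normalization gave 2 higher at 250 nM in ZR-75-1 (32.5% of genes) and in the 4-line fit (the latter chosen after seeing the data). It gave 1 lower at 50 nM in T47D (5.75% of genes). Control transcripts gave 0 higher in T47D at 50 and 250 nM (0.538% and 0.15% of genes). They also gave a MYC change of -0.35 in T47D at 50 nM and a MYC difference of -0.48 against T47D. Means over probe sets gave 2, 1 and 1 lower at 50 nM in MDA-MB-468, in ZR-75-1 and in T47D, 0 higher in T47D at 50 nM, and 3 lower and 1 higher in T47D at 250 nM. Without a low-value filter T47D had 1 lower at 50 nM, and with only the line's own 6 arrays MDA-MB-468 had 2 and T47D 1. Shares of all genes are not given for the means over probe sets, these settings or the rescaled 4-line fit. Nor are they given for the replicate block or for leaving out 1 array. These member counts therefore have no background share beside them. Whether the replicate numbers pair the arrays is not known. Deviations of same-numbered arrays had correlations from -0.22 to 0.29, which cannot settle this with 2 arrays a group. With the replicate block T47D had 1 member lower at 50 nM (MLX) and no other member count moved by over 1.5 times. Directions that turned were MXI1 at 250 nM with control transcripts (-0.42 in MDA-MB-468, -0.38 in T47D) and, in ZR-75-1, with median centring (0.20) and quantile normalization (0.28); MXD4 with control transcripts (-0.55 in ZR-75-1, -0.27 in T47D); and, all with control transcripts, MYC of ZR-75-1 less T47D (-0.25 with DMSO, -0.49 at 250 nM), MYC of MDA-MB-468 less ZR-75-1 at 250 nM (0.02), MAX of ZR-75-1 less T47D at 50 nM (0.32) and MLX of 250 against 50 nM in MDA-MB-468 (-0.38); the cause was not tested. Another 50 values that passed in neither fit changed sign, at most 0.28 in size. Leaving out 1 array at a time (18 fits), members lower at 50 nM ranged from 2 to 4 in MDA-MB-468 and from 0 to 2 in T47D, members higher in T47D from 0 to 1 at 50 nM and from 1 to 2 at 250 nM, and the MYC difference at 50 nM from -0.61 to -0.5 against ZR-75-1 and from -0.66 to -0.56 against T47D. MYC kept its call at 250 nM in the 3 lines under every alternative, between -4.74 and -4.03 in MDA-MB-468, -3.02 and -1.89 in ZR-75-1 and -2.78 and -1.96 in T47D over the settings other than leaving out an array. Signal over background limits MXD1 in BT-549, where 1 of 3 arrays was not above background, and in T47D at 250 nM, where both arrays stood barely above it. The ZR-75-1 arrays at 250 nM also stood close to background for MXD1. The tests of MYC levels between lines at 250 nM and of changes relative to MYC were added after seeing the data.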
